A study of Homo sapiens with 4 samples.

Results

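The snoRNA host genes described here are noncoding genes that carry small nucleolar RNAs (snoRNAs) in their introns. They were chosen by symbol, as SNHG followed by a number together with GAS5, ZFAS1, EPB41L4A-AS1 and DANCR, and each needed at least 4 UMIs (distinct captured molecules) in 1 library. Of the 33538 genes listed, 16 had such a symbol and 14 reached 4 UMIs: SNHG4, SNHG7, SNHG8, SNHG9, SNHG10, SNHG12, SNHG15, SNHG18, SNHG19, SNHG21, SNHG22, SNHG25, ZFAS1 and EPB41L4A-AS1. GAS5, DANCR and other SNHG genes were not analysed here. Just inside the limit stood SNHG22 with 4 to 6 UMIs per library and SNHG4 with 12 to 21, and just outside stood SNHG27 with at most 2 and SNHG28 with 0.

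The cells were HCEC 1CT, a line of colonic epithelial cells of human origin that carries TERT and CDK4 for immortalisation. They were transduced with a short hairpin RNA against APC (shAPC) or a scrambled hairpin (shScr), kept in puromycin, and harvested 3 and 7 days after transduction for droplet-based single-cell RNA sequencing of 3′ ends. This gave 4 libraries, with 1 library per group and no second hairpin against APC. Every comparison between groups is therefore a comparison of 2 libraries, without a test, and the intervals given are 95% intervals for counting error only.

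The kept cells numbered 1116 in shScr day 3, 788 in shAPC day 3, 2600 in shScr day 7 and 1478 in shAPC day 7. In the same order, 1471, 1047, 3652 and 3035 barcodes were deposited. Of these, 346, 245, 1052 and 1551 were removed for 5% or more mitochondrial UMIs, so the loss was unequal, above all on day 7. Their UMIs summed to 28451455 to 39797418 per library, while the median per cell ranged from 1330 in shScr day 7 to 49685.5 in shAPC day 3. Pairs of libraries shared 1 to 19 kept barcodes. The shScr matrices carry a Cell Ranger 3.0.2 header and the shAPC matrices a 3.0.0 header, so the software version and the hairpin cannot be told apart. APC, the targeted gene, stood at 16.1 CPM (UMIs per 1e6 kept UMIs of a library) in shScr day 3, 5.52 in shAPC day 3, 19.1 in shScr day 7 and 6.61 in shAPC day 7. Of 9 colonic epithelial markers only 4 reached 4 UMIs, with EPCAM, CDH1, CDX2, VIL1 and KRT20 below it, and their summed level was 25.01 to 49.3 CPM. The 4 were found in every library: KRT8 at 9.57 to 19.4 CPM, CLDN7 at 6.26 to 16.9, KRT18 at 3.02 to 7.13 and KRT19 at 2.34 to 5.72. The 5 mesenchymal markers summed to 5712 to 7681 CPM. The epithelial label of the line was thus matched by only 4 of the 9 markers, at low levels. Of 4 immune markers only CD68 reached 4 UMIs, and of 3 endothelial markers only VWF did.

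A snoRNA host gene is transcribed and spliced, and its snoRNAs are cut from the introns that splicing releases. Box C/D snoRNAs guide the methylation of ribosomal RNA and box H/ACA snoRNAs guide its pseudouridylation, while small Cajal body RNAs (scaRNAs) act on spliceosomal RNAs. The spliced host RNA left over is often translated over short frames and then degraded by nonsense-mediated decay, and many host genes start with the pyrimidine tract (5′ TOP) that is also found in ribosomal protein mRNAs. The libraries captured polyadenylated RNA, so the values below are those of the host transcripts and not of the snoRNAs.

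In the GENCODE 44 annotation of GRCh38, 22 small RNAs lay inside the 14 members on the same strand, at least 1 in each member. They were 7 box C/D snoRNAs, 12 box H/ACA snoRNAs and 3 scaRNAs. In 21 of the 22 the small RNA lay in an intron of at least 1 spanning transcript, the exception being SNORA50C in SNHG25. SNHG12 held the most, with SNORD99, SNORA61, SNORA44 and SNORA16A, and ZFAS1 held SNORD12, SNORD12B and SNORD12C.

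One snoRNA is shown for each of the 6 members that differed most between the shAPC and shScr libraries. The sequences are the annotated strand of GRCh38 from 5′ to 3′. Capitals mark box C (TGATGA) near the 5′ end and box D (CTGA) near the 3′ end of the box C/D snoRNAs, and the ACA trinucleotide near the 3′ end of the box H/ACA snoRNAs, where the exact letters were present.
SNORD99 in SNHG12 (chr1:28578749-28578822, minus strand): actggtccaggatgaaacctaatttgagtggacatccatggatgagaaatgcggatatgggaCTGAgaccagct
SNORA9 in SNHG15 (chr7:44985378-44985510, minus strand): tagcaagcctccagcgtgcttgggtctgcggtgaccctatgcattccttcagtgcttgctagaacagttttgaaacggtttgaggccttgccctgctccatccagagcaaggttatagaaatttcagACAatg
SNORA78 in SNHG9 (chr16:1965184-1965310, plus strand): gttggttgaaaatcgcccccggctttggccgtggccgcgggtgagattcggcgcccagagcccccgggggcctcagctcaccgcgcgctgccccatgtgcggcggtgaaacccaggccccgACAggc
SNORD60 in SNHG19 (chr16:2155023-2155105, minus strand): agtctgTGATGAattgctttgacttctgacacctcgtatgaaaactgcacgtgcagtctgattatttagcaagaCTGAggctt
SNORD104 in SNHG25 (chr17:64146083-64146152, plus strand): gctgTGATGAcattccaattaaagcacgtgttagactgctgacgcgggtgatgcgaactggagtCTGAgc
SNORD123 in SNHG18 (chr5:9548836-9548905, plus strand): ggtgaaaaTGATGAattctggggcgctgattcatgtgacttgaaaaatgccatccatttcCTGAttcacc

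The starts of the genes were read from RefSeq, which had an entry for 11 of the 14 members (build GRCh38.p14; SNHG9, SNHG15 and SNHG25 had no entry). In 5 of the 11, namely SNHG12, SNHG18, SNHG19, SNHG4 and ZFAS1, the RefSeq start was a C followed by at least 4 pyrimidines, against 4.07% of 35116 promoters. The 4 that reached 20 CPM are shown from 10 bases before the start through 30 bases from it, with the pyrimidine run from the start in capitals, cut at 15 bases. The letters TGATGNAA and TGACGTCA, searched on both strands from 250 bases before to 50 after the start, were in 0 of the 11 windows and in 3.62% and 1.85% of all promoters.
SNHG12 (chr1:28581844-28581883, minus strand): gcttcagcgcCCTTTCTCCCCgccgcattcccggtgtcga
SNHG18 (chr5:9546190-9546229, plus strand): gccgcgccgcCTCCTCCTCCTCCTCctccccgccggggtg
SNHG19 (chr16:2155329-2155368, minus strand): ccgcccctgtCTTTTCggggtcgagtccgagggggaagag
ZFAS1 (chr20:49278632-49278671, plus strand): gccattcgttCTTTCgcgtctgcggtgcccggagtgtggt

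Of the 14 members, 10 reached 20 CPM in 1 of the libraries compared and 4 did not. SNHG10, the host of SCARNA13, stood at 9.32 to 14.1 CPM over the 4 libraries, and SNHG21, the host of SCARNA15, at 6.71 to 10.6 CPM. SNHG4, the host of SNORA74A and SNORA74D, stood at 0.343 to 0.672 CPM, and it shares 626 exonic bases with MATR3 on the same strand, so its few UMIs are uncertain. SNHG22, the host of SCARNA17, stood at 0.101 to 0.192 CPM, and its intervals overlapped in all 4 libraries. These 4 enter the counts below only where a comparison brings one to 20 CPM, which is then said.

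Taken as a sum, the 14 members made up 2833 CPM in shScr day 3, 3648 in shAPC day 3, 1783 in shScr day 7 and 2696 in shAPC day 7. The sum was higher in shAPC than in shScr on both days and lower on day 7 than on day 3 under both hairpins. Much of the difference between the days lay in SNHG25. That member stood at 876 CPM in shScr day 3 and 115 in shScr day 7, and at 897 and 249.9 CPM in shAPC. The log2 ratio of the sums, shAPC over shScr, was 0.36 (0.35 to 0.38) on day 3 and 0.60 (0.58 to 0.61) on day 7. The day 3 difference depended on the scaling, since it was -0.0086 with TMM factors and 0.0050 with DESeq2 size factors. SNHG25 had the highest level in shScr day 3 and ZFAS1 in the other 3 libraries, and without both the sums were 1124, 1595, 891 and 1362 CPM in the same order.

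**Figure D1:**
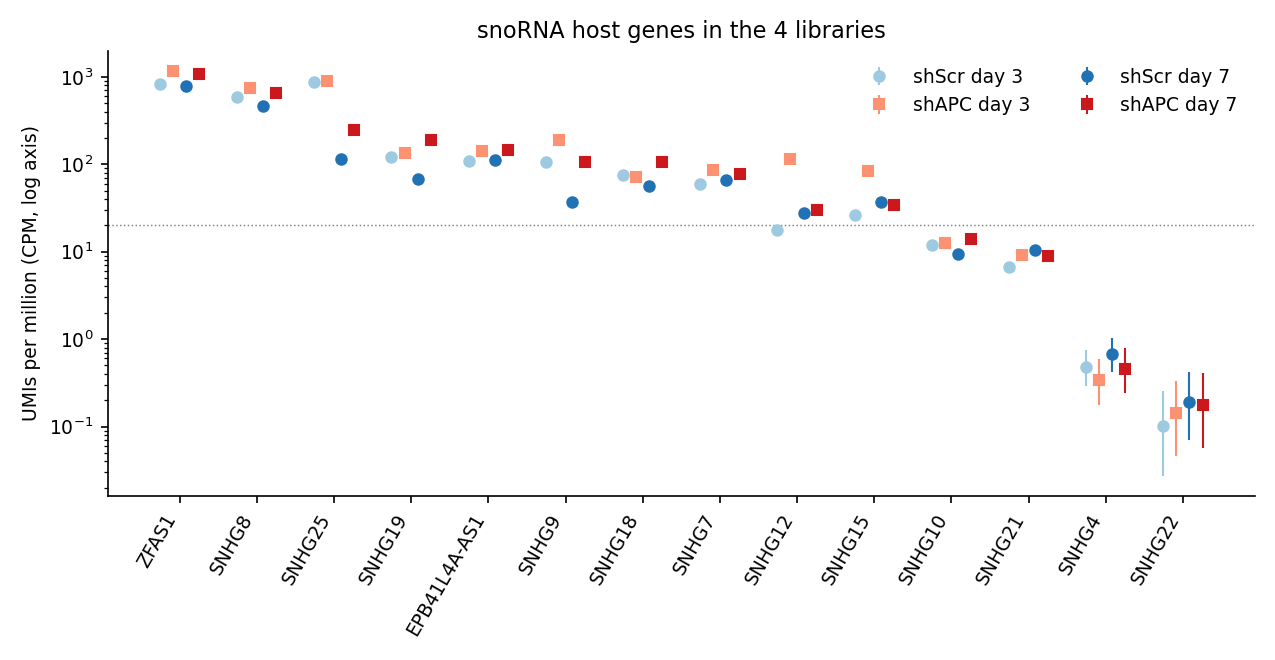
CPM (log axis) of the 14 members in the 4 libraries, circles for shScr and squares for shAPC, with 95% Poisson intervals that are mostly smaller than the symbols. SNHG12 and SNHG15 stand highest in shAPC day 3 (116 and 83.2 CPM), whereas SNHG25 stands at 876 CPM in shScr day 3 and 115 CPM in shScr day 7. The dotted line marks 20 CPM.

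The first comparison asked how the members stood 3 days after the knockdown. Because the median gene was 0.28 higher on the log2 scale in shAPC than in shScr, ratios are given relative to the median of the 5175 genes of at least 20 CPM, as log2 of CPM plus 1. A member counted as higher or lower where it lay at least 1.5-fold from that median. On day 3, SNHG12 and SNHG15 were higher and no member was lower, that is 2 of 10, while 5.93% of all genes tested were higher and 4.99% were lower. The median of the 10 members was 0.14.

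SNHG12 stood at 17.5 CPM (16.3 to 18.9) in shScr day 3, 116 CPM (112 to 119) in shAPC day 3, 27.7 CPM (25.9 to 29.6) in shScr day 7 and 30.2 CPM (28.2 to 32.3) in shAPC day 7. The shAPC day 3 library alone was high, and the intervals of both day 7 libraries overlapped. Its day 3 log2 ratio was 2.72 (2.61 to 2.84), a 6.60-fold difference, and 2.38 relative to all genes. SNHG12 overlaps TRNAU1AP on the opposite strand by 8 exonic bases, and TRNAU1AP, which was below 20 CPM, had a relative log2 ratio of -0.19.

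SNHG15, the host of SNORA9, stood at 26.0 CPM (24.4 to 27.6) in shScr day 3, 83.2 CPM (80.2 to 86.3) in shAPC day 3, 37.1 CPM (35.0 to 39.3) in shScr day 7 and 34.1 CPM (31.9 to 36.3) in shAPC day 7. The shAPC day 3 library was the highest and shScr day 3 the lowest, and only the intervals of both day 7 libraries overlapped. The day 3 log2 ratio was 1.68 (1.58 to 1.79), a 3.21-fold difference, and 1.37 relative to all genes.

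The other 8 members lay between -0.33 and 0.53 relative to all genes on day 3. SNHG9, the host of SNORA78, came nearest to the limit, with 107 CPM in shScr and 188 in shAPC and a relative ratio of 0.53. SNHG7, the host of SNORA17A and SNORA17B, had 60.1 and 85.2 CPM and a relative ratio of 0.22. ZFAS1 had 833 and 1157 CPM and a relative ratio of 0.20. ZFAS1 overlaps ZNFX1 on the opposite strand by 249 exonic bases, and ZNFX1 had a relative ratio of 1.00; the strand setting of the counting is not given in the sources used here. SNHG8, the host of SNORA24, had 587 and 751 CPM and lay at 0.08, and EPB41L4A-AS1, the host of SNORA13, had 109.9 and 140.4 CPM and lay at 0.07. Both have a partner gene on the opposite strand with shared exonic bases, PRSS12 and EPB41L4A.

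Below the median gene on day 3 lay 3 members, each by less than 1.5-fold. SNHG18, the host of SNORD123, had 75.4 CPM in shScr and 72.5 in shAPC and a relative ratio of -0.33. SNHG25, the host of SNORD104 and SNORA50C, had 876 and 897 CPM and a relative ratio of -0.24. SNHG19, the host of SNORD60, had 121 and 136 CPM and a relative ratio of -0.11.

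On day 7, 4 of the 10 members were at least 1.5-fold higher in shAPC and 0 were lower, while 4.07% of the 4573 genes tested were higher and 5.2% were lower. The members' median was 0.57, and the median gene itself had a log2 ratio of -0.10. The 4 were SNHG9, SNHG19, SNHG25 and SNHG18, and neither SNHG12 nor SNHG15 was among them, with relative ratios of 0.22 and -0.02.

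SNHG9 stood at 107 CPM (104 to 110) in shScr day 3, 188 CPM (183 to 193) in shAPC day 3, 37.1 CPM (35.0 to 39.3) in shScr day 7 and 107 CPM (103 to 111) in shAPC day 7. The shScr day 7 library was the low one. The day 7 log2 ratio was 1.53 (1.43 to 1.63), a 2.88-fold difference, and 1.60 relative to all genes.

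SNHG19 stood at 121 CPM (118 to 125) in shScr day 3, 136 CPM (133 to 140) in shAPC day 3, 68.5 CPM (65.6 to 71.5) in shScr day 7 and 188 CPM (183 to 193) in shAPC day 7. It was lowest in shScr day 7 and highest in shAPC day 7. Its day 7 log2 ratio was 1.46 (1.38 to 1.53), a 2.74-fold difference, and 1.54 relative to all genes.

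SNHG25 stood at 876 CPM (867 to 885) in shScr day 3, 897 CPM (887 to 907) in shAPC day 3, 115 CPM (111 to 119) in shScr day 7 and 249.9 CPM (244 to 256) in shAPC day 7. Both day 7 libraries lay far below both day 3 libraries. The day 7 log2 ratio between the hairpins was 1.12 (1.06 to 1.18), a 2.17-fold difference, and 1.21 relative to all genes.

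SNHG18 stood at 75.4 CPM (72.8 to 78.2) in shScr day 3, 72.5 CPM (69.7 to 75.3) in shAPC day 3, 56.7 CPM (54.1 to 59.4) in shScr day 7 and 107 CPM (103 to 111) in shAPC day 7. Its day 7 log2 ratio was 0.91 (0.83 to 1.00), a 1.88-fold difference, and 1.00 relative to all genes. ZFAS1, with 777 CPM in shScr day 7 and 1085 in shAPC day 7, came just short of the limit at 0.58. SNHG8, with 466 and 649 CPM, lay at 0.57. EPB41L4A-AS1, with 111 and 146 CPM, lay at 0.49, and SNHG7, with 65.6 and 76.7 CPM, at 0.32.

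**Figure D2:**
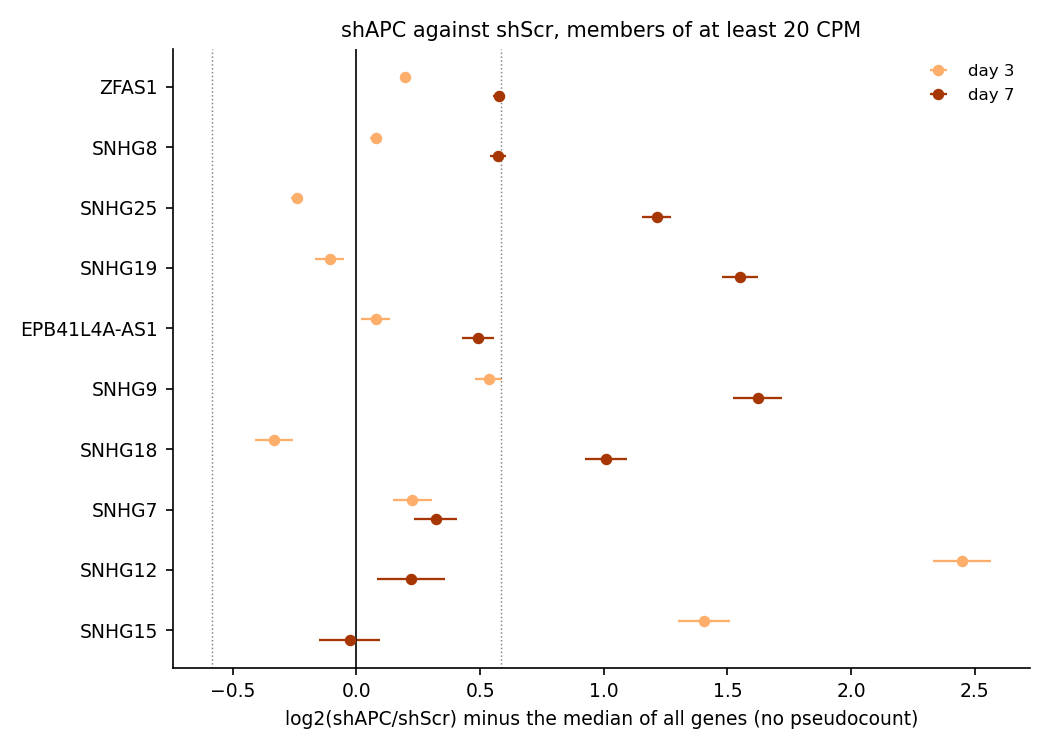
Log2 ratio of shAPC over shScr minus the median of all genes, for the 10 members of at least 20 CPM, on day 3 (light) and day 7 (dark), with 95% exact conditional intervals for counting error. No pseudocount is used here, so that low genes lie slightly farther from 0 than the values with 1 CPM added. SNHG12 and SNHG15 pass the dotted 1.5-fold line on day 3 only, and SNHG9, SNHG19, SNHG25 and SNHG18 pass it on day 7 only.

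Between the days, the members differed more among themselves than in their median. In shScr, day 7 against day 3, the median of the 10 members was -0.27, with 0 higher and 3 lower (2.35% and 4.52% of all genes tested). The 3 were SNHG25 at -2.97, SNHG9 at -1.56 and SNHG19 at -0.87. In shAPC the median was 0.16, with 2 higher and 3 lower (6.67% and 7.57% of all genes tested). SNHG18 and SNHG19 were higher on day 7, at 0.89 and 0.80, and SNHG12, SNHG25 and SNHG15 were lower, at -1.57, -1.504 and -0.93. SNHG25 was lower on day 7 under both hairpins, with log2 ratios of -2.93 (-2.98 to -2.88) in shScr and -1.84 (-1.88 to -1.81) in shAPC. In shScr the log2 ratio of SNHG9 was -1.53 (-1.62 to -1.44) and that of SNHG19 -0.83 (-0.90 to -0.75). In shAPC that of SNHG12 was -1.94 (-2.05 to -1.83), that of SNHG15 -1.29 (-1.40 to -1.18), that of SNHG18 0.56 (0.49 to 0.64) and that of SNHG19 0.46 (0.41 to 0.52). These comparisons use the same libraries as those between the hairpins.

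SNHG9, SNHG19 and SNHG25 are the 3 shortest members, spanning 615, 614 and 540 bases, whereas the next, SNHG15, spans 3943 bases. They also held the 3 highest day 7 ratios between the hairpins and the 3 lowest ratios of day 7 to day 3 in shScr, which rest on the same shScr day 7 library. Of the 25 genes tested that span under 1000 bases, these 3 included, 5 were higher and 1 was lower in shAPC on day 7, with a median of 0.22. Of the 93 genes with under 1000 exonic bases, these 3 included, 12 were higher and 8 lower, with a median of 0.05. Of 80 long noncoding genes of any length, which hold these 3 and may hold other members, 17 were higher and 6 lower, with a median of 0.25. The 10 long noncoding genes with under 1000 exonic bases, again these 3 included, had 6 higher and 0 lower and a median of 0.76. Over all genes tested, 4.07% were higher and 5.2% lower. The shScr day 7 library also had the lowest median of UMIs per cell. Restricted to cells of at least 2000 genes, the day 7 median of the members was 0.56 and again 4 were higher. The share over all genes was not computed for these cells. The part of gene length and of the library in these ratios was not tested.

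**Figure D3:**
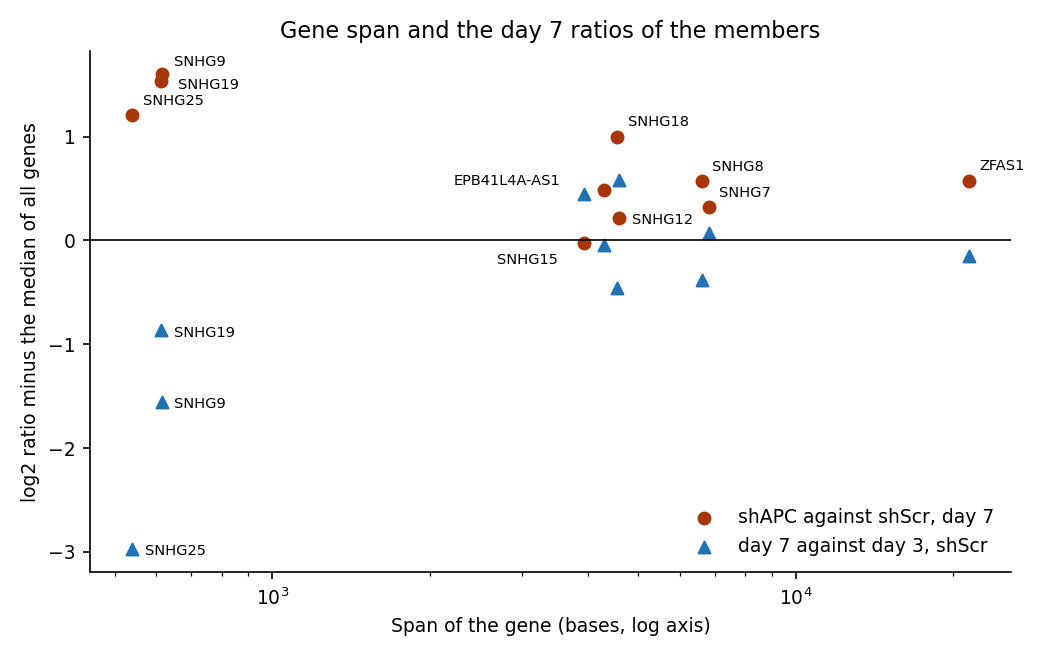
Span of each member of at least 20 CPM in bases (log axis) against its relative log2 ratio, for shAPC over shScr on day 7 (circles) and for day 7 over day 3 in shScr (triangles), which share the shScr day 7 library. SNHG25, SNHG9 and SNHG19, the 3 genes under 1000 bases, have circles of 1.21 to 1.60 and triangles of -2.97 to -0.87.

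Cells were also compared by their UMIs of ATF3, a transcription factor induced by stress and by the ATF4 pathway. In shAPC day 3, 130 of the 788 kept cells had at least 1 ATF3 UMI (16.5%), against 35 cells in shScr day 3, 72 in shScr day 7 and 44 in shAPC day 7. Deeper cells are more likely to show an ATF3 UMI: in shAPC day 3 the median was 62344 UMIs in cells with one and 47221.5 in cells without, and in shScr day 7 it was 26880 against 1245. The ratios here are of summed CPM. Those given in the text with an interval are plain log2 ratios, and the others are relative to the median of all genes tested.

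In shAPC day 3, 5 of 10 members were at least 1.5-fold higher in ATF3-positive than in ATF3-negative cells and 0 were lower, while 15.6% of the 5933 genes tested were higher and 12.8% were lower. The members' median was 0.64. The 5 were SNHG12 at 3.11, SNHG15 at 2.00, SNHG7 at 1.22, EPB41L4A-AS1 at 1.02 and SNHG8 at 0.73. ZFAS1 lay at 0.55 and SNHG9 at 0.37, and SNHG18, SNHG25 and SNHG19 lay below the median gene, at -0.22, -0.32 and -0.54.

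SNHG12 stood at 33.6 CPM (31.4 to 35.9) in the 658 cells with 0 ATF3 UMIs, 122 CPM (112 to 133) in the 84 cells with 1 or 2 and 638 CPM (613 to 662) in the 46 cells with 3 or more. Its log2 ratio, positive over negative and not relative to all genes, was 3.45 (3.35 to 3.56). The 130 ATF3-positive cells held 24.6% of the UMIs of the library and 78.1% of its SNHG12 UMIs. The difference did not rest on 1 cell: 44 of the 46 cells with 3 or more ATF3 UMIs had a SNHG12 UMI, their quartiles were 364 and 963 CPM per cell, and without the cell with most SNHG12 UMIs the level was 625 CPM.

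SNHG15 stood at 41.8 CPM (39.4 to 44.4), 106 CPM (96.5 to 116) and 324 CPM (307 to 342) in the same classes of cells, and 45 of the 46 cells with 3 or more ATF3 UMIs had a UMI of it. The log2 ratio of SNHG15, positive over negative, was 2.33 (2.22 to 2.44), that of SNHG7 1.54 (1.44 to 1.64), that of EPB41L4A-AS1 1.33 (1.25 to 1.41) and that of SNHG8 1.04 (1.00 to 1.07). SNHG7 stood at 58.0, 95.4 and 249 CPM, EPB41L4A-AS1 at 102, 156 and 369 CPM, and SNHG8 at 597, 808 and 1680 CPM. ZFAS1 stood at 966, 1214 and 2321 CPM. SNHG25 did not follow them, with 899 CPM (888 to 911), 898 CPM (870 to 926) and 879 CPM (851 to 908), and its 3 intervals overlapped. The ATF3-positive cells held 62.1% of the SNHG15 UMIs, 48.7% of those of SNHG7, 45.1% of those of EPB41L4A-AS1, 40.1% of those of SNHG8 and 37.0% of those of ZFAS1, but 24.4% of those of SNHG25, close to their 24.6% of all UMIs. The cells with 3 or more ATF3 UMIs also had a lower median of mitochondrial UMIs (1.33% against 3.58% in cells with none), a lower median of ribosomal protein UMIs (23.7% against 29.5%) and more UMIs (94631 at the median); the part of these in the differences was not tested.

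**Figure D4:**
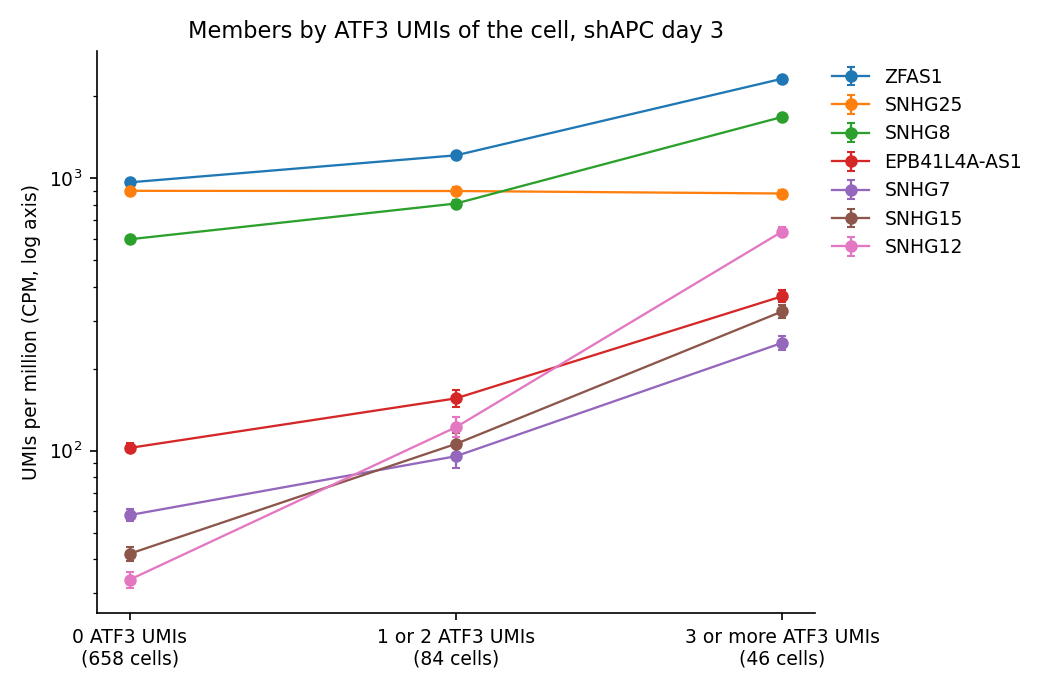
CPM (log axis) of 7 members summed over the cells of shAPC day 3 with 0, 1 or 2, and 3 or more ATF3 UMIs, with 95% Poisson intervals. SNHG12 goes from 33.6 to 638 CPM and SNHG15 from 41.8 to 324 CPM, while SNHG25 stays between 879 and 899 CPM.

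The same contrast in shScr day 7 and shAPC day 7 gave SNHG12 the highest ratio among the members again, at 3.45 and 3.20, followed by SNHG15 at 1.46 and 1.71. In shScr day 7, SNHG12 stood at 15.5 CPM (14.1 to 17.03) in ATF3-negative and 205 CPM (186 to 226) in ATF3-positive cells, and in shAPC day 7 at 20.0 CPM (18.3 to 21.7) and 237 CPM (211 to 264). Few cells carried these levels. In shScr day 7 the 16 cells with 3 or more ATF3 UMIs held 362 of the 411 SNHG12 UMIs of the positive cells, at 452 CPM, the other 56 stood at 40.8 CPM, and the median positive cell had 0. In shAPC day 7, 9 such cells held 200 of 319 SNHG12 UMIs, and the other 35 stood at 121 CPM. In shScr day 7, 6 of 10 members were higher and 0 lower (15.2% and 9.38% of all genes tested), and in shAPC day 7, 3 of 11 were higher and 0 lower (9.25% and 4.63%), SNHG10 being tested here because it reached 22.3 CPM in ATF3-positive cells. EPB41L4A-AS1 was higher in both, at 1.01 and 0.67, while SNHG7 at 0.94, ZFAS1 at 0.89 and SNHG8 at 0.76 were higher in shScr day 7 and lay at 0.22, 0.39 and 0.29 in shAPC day 7; the difference between the libraries was not tested. In shScr day 3 only SNHG12 was higher, 1 of 10 (1.83% of all genes tested; 0 lower, against 0.903%), with a relative ratio of 1.20. There 1 of the 35 ATF3-positive cells held 48.0% of the SNHG12 UMIs, and without it the level was 20.8 CPM, against 16.5 CPM in the negative cells.

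**Figure D5:**
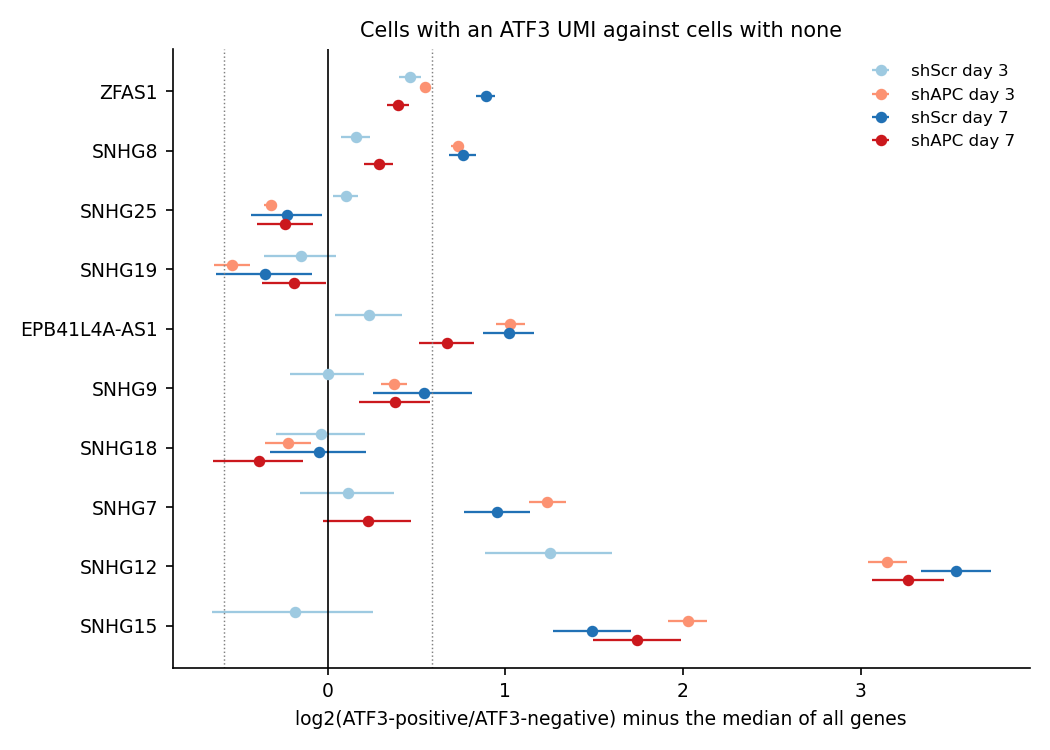
Log2 ratio of ATF3-positive over ATF3-negative cells minus the median of all genes, for the 10 members in each of the 4 libraries, with 95% exact conditional intervals and no pseudocount. SNHG12 lies above 3 and SNHG15 above 1 in all libraries but shScr day 3, and SNHG25, SNHG19 and SNHG18 lie at or below 0 except SNHG25 in shScr day 3. The dotted lines mark 1.5-fold.

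Leaving the ATF3-positive cells out of both libraries, a choice made after the data were seen, gave other values for the day 3 comparison between the hairpins. SNHG12 then stood at 16.5 CPM in shScr and 33.6 CPM in shAPC, with a log2 ratio of 1.03 (0.88 to 1.18) and 0.80 relative to all genes, and SNHG15 had a relative ratio of 0.47. The members' median was -0.06, and SNHG12 alone remained higher, 1 of 10, against 2.85% of all genes tested (0 lower, against 3.4%). On day 7 the same restriction left SNHG9, SNHG19, SNHG25 and SNHG18 at 1.61, 1.52, 1.20 and 1.01. ZFAS1 and SNHG8 then passed the limit at 0.63 and 0.62, and SNHG12 was below 20 CPM in both, so that 6 of 9 were higher (4.28% of all genes tested; 0 lower, against 5.47%).

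The share of cells with a UMI was compared after each cell had been thinned to 2000 UMIs, which left 899 cells of shScr and 673 of shAPC on day 3, and 1198 of shScr and 1087 of shAPC on day 7. In that order, SNHG12 was found in 2.34% of cells (1.45 to 3.55), 10.8% (8.60 to 13.4), 4.76% (3.62 to 6.12) and 4.05% (2.96 to 5.40). Unthinned, the shares were 32.7%, 53.0%, 12.9% and 24.6%. SNHG25 was found in 76.6%, 75.9%, 21.5% and 37.8% of thinned cells and in 87.6%, 89.5%, 39.2% and 72.3% of unthinned ones. SNHG19 was found in 22.2%, 25.1%, 12.4% and 27.5% of thinned cells. The thinned shares kept the order of the CPM for SNHG12 on day 3, for SNHG25 on day 7 and for SNHG19 on both days. For SNHG12 on day 7 and SNHG25 on day 3 the order was the other way, with share intervals that overlapped. A line of 1 cell type offers no cells that should lack these genes, so the share given by free RNA is unknown.

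Other genes of the pathway were followed as lists. Of the box C/D core proteins (SNU13, FBL, NOP56 and NOP58) and the H/ACA core proteins (NHP2, NOP10, DKC1 and GAR1), 0 of 8 passed 1.5-fold between the hairpins on either day. Of all genes tested, 5.93% were higher and 4.99% lower on day 3, and 4.07% and 5.2% on day 7. The same shares apply to the assembly and decay factors below. With so few genes, 0 passing lies near these shares and is no result about a list. The box C/D list had a median of 0.21 on day 3 and -0.10 on day 7, and the H/ACA list one of -0.01 and -0.13. FBL, the methyltransferase of box C/D particles, had relative ratios of -0.33 on day 3 and 0.03 on day 7, SNU13 had 0.06 and -0.20, and NOP56 had 0.36 and 0.00. DKC1, the pseudouridine synthase of H/ACA particles, had -0.15 and -0.19, NHP2 had -0.26 and -0.15, and NOP10 had 0.13 and -0.11. Of the 7 assembly factors tested 0 passed on either day, with RUVBL2 at 0.11 and -0.13, ZNHIT3 at -0.07 and 0.09, and NOLC1 at 0.01 and -0.10. Of the factors of nonsense-mediated decay 0 of 13 passed on day 3 and 0 of 9 on day 7, with RBM8A at 0.14 and -0.28, UPF3A at -0.13 and -0.15, and UPF2 at 0.01 and 0.13.

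The medians were 0.11 and 0.08 for assembly and 0.11 and -0.15 for decay on days 3 and 7. Within shAPC day 3, ATF3-positive against ATF3-negative cells, 0 of the 8 core proteins passed, with medians of 0.15 for box C/D and -0.28 for H/ACA. Of 9 assembly factors 2 were higher and 1 lower, and of 15 factors of nonsense-mediated decay 3 were higher and 0 lower, where 15.6% of all genes tested were higher and 12.8% lower. The assembly factors were NUFIP1 at 1.53, RPAP3 at 0.64 and ZNHIT6 at -0.80, and the decay factors SMG9 at 1.36, NBAS at 0.98 and UPF3B at 0.82. With so few genes these counts lie near the shares over all genes and are no result about either list.

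Protein-coding genes can host snoRNAs too. Of 35 coding hosts tested on day 3, 1 was higher and 12 were lower in shAPC, with a median of -0.51, where 5.93% of all genes tested were higher and 4.99% lower. RPS2, RPL13A and RPS12, all coding for ribosomal proteins, lay at -0.51, -0.50 and -0.35, and the 12 included RPL17 at -0.78 and RPL3 at -0.76. Ribosomal protein genes have near-identical pseudogenes, so their counts are uncertain. The 1 that was higher was TAF1D, which codes for a subunit of the RNA polymerase I factor SL1, with 109 CPM in shScr day 3, 254 in shAPC day 3, 128 in shScr day 7 and 132 in shAPC day 7 and a day 3 relative ratio of 0.93. In ATF3-negative cells alone, 0 of 35 were higher and 1 was lower on day 3 (2.85% and 3.4% of all genes tested), with a median of -0.38. On day 7, 0 of 35 passed in either direction, with a median of 0.14, where 4.07% of all genes tested were higher and 5.2% lower. RPS2, RPL13A and RPS12 then lay at 0.14, 0.29 and 0.19. In ATF3-positive cells of shAPC day 3, 1 of 36 coding hosts was higher, TAF1D at 1.83, and 10 were lower, with a median of -0.51, where 15.6% of all genes tested were higher and 12.8% lower. TAF1D was also higher in ATF3-positive cells of shScr day 7 and shAPC day 7, at 1.76 and 1.13.

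Among 11 genes of the ATF4 stress pathway, 9 were higher and 0 lower on day 3 (5.93% and 4.99% of all genes tested), with a median of 1.69, and 1 was higher and 1 lower of 7 on day 7, with a median of -0.40. This list holds ATF3 itself. GADD45A had relative ratios of 2.39 and -0.49 on days 3 and 7, ATF4 had -0.23 and 0.15, and DDIT4 had 0.32 and 0.52. Of 4 nuclear long noncoding RNAs that are not host genes, 0 passed on day 3 and 1 was higher on day 7. Over all genes tested on day 7, 4.07% were higher and 5.2% lower. MALAT1, NEAT1 and MEG3 lay at -0.33, -0.33 and -0.48 on day 3 and at 0.43, 0.57 and 0.31 on day 7. In ATF3-positive cells of shAPC day 3 all 4 were lower, from -1.17 for KCNQ1OT1 to -0.61 for MALAT1. Over all genes tested there, 15.6% were higher and 12.8% lower.

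Barcodes removed for 5% or more mitochondrial UMIs held less SNHG12 than kept cells in all 4 libraries. In shAPC day 3 the 245 such barcodes had 21.3 CPM of SNHG12 against 116 in kept cells, a log2 ratio of -2.45 (-2.72 to -2.18), and for SNHG15 the ratio was -1.07 (-1.27 to -0.87). In the other libraries the SNHG12 ratios lay between -0.77 and -0.52. SNHG25 was higher in the removed barcodes of all 4 libraries, with log2 ratios of 0.16 to 0.41. In shScr day 7 and shAPC day 7, SNHG9 was also higher there, at 0.42 and 0.40, and SNHG19 at 0.19 and 0.28. With all deposited barcodes, the day 7 median of the members between the hairpins was 0.50 and again 4 were higher. The share over all genes was not computed for this setting.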

How the data were processed

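Single-cell libraries of HCEC 1CT cells (shScr and shAPC, days 3 and 7, 1 library each) were measured by 10x 3′ sequencing. Sources differ on the virus (retroviral or lentiviral) and kit (v2 or V3). The authors aligned reads to hg38 and deposited raw UMI counts per gene and called cell from Cell Ranger (matrix headers 3.0.2 for shScr and 3.0.0 for shAPC; the submitters' processing notes give 3.0.2 and the methods 3.0.0). The annotation release and strand setting are not given in the sources used here.

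Barcodes with at least 200 genes, 500 UMIs and under 5% of UMIs from 13 mitochondrial genes were kept. No doublet caller was run and no doublets were removed. UMIs were summed over cells and scaled to CPM; ratios used log2(CPM + 1), relative to the median of genes of at least 20 CPM in 1 of both sides, and called members lay 1.5-fold from it. Intervals are 95% exact: Poisson (CPM), conditional binomial without pseudocount (ratios) and Clopper-Pearson (shares). With 1 library per group no test was run. Every member of at least 4 UMIs is named, and of each other list the 3 genes highest in mean CPM and those singled out after their values were seen. Members and lists were chosen with earlier results of these data known. The code was tested on simulated data. Tools were Python 3.11.15, R 4.3.3, edgeR 4.0.16 (TMM) and DESeq2 1.42.0 (size factors).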

Additional observations from a re-analysis of the deposited data

Results flagged for a closer look

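For 3 members the day 3 and day 7 ratios of shAPC over shScr lay on opposite sides of the median gene, with counting intervals that did not reach it. SNHG18 had relative log2 ratios of -0.33 on day 3 and 1.00 on day 7, SNHG19 had -0.11 and 1.54, and SNHG25 had -0.24 and 1.21. The difference between the days was not tested, since each rests on 1 library per group. Without the centring on the median gene, SNHG19 and SNHG25 had day 3 log2 ratios of 0.17 and 0.03, on the same side as on day 7, and SNHG18 had -0.06, with an interval of -0.13 to 0.02 that reached 0.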

How the results depend on the processing

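No paired analysis was possible because each group holds 1 library and the labels carry no replicate numbers. Leaving out a replicate was not run for the same reason, and the counting intervals say nothing of the spread between cultures. The values below are those that moved beyond a limit. For a summed level this was the half-width of its counting interval, and for a count 1.5 times. For a median it was the mean half-width of the intervals of the single members. For a difference of shares it combined the half-widths of both shares. Where no value shows a cause, the cause was not tested. Of the alternative values of the main results, 76 stayed within these limits, 43 moved and 1 reversed. The leave-out of ATF3-positive cells was chosen after seeing the data.

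The median of the members on day 3, 0.14, was 0.041 with TMM factors, 0.054 with DESeq2 size factors and 0.41 with total UMIs, all 3 not relative to all genes, and 0.23 with a minimum of 100 CPM. In cells with no ATF3 UMI it reversed to -0.063 and 1 member was higher in place of 2. The day 7 median, 0.57, was 0.48 with TMM, 0.47 with DESeq2 and 0.48 with total UMIs, again not relative, 0.42 with no minimum and 1.04 with 100 CPM. With the mean of CPM over cells it was 0.79, and 8 members were higher in place of 4. The share of all genes past 1.5-fold was not computed for that mean, so its count is no result about the members. Over 11 alternatives the day 3 ratio of SNHG12 lay between 0.80 and 2.66, past 1.5-fold in each. That of SNHG15 lay between 0.47 and 1.64 over 10, since it is below 100 CPM, and at 0.47, in cells with no ATF3 UMI, it was no longer past 1.5-fold.

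The ATF3 median in shAPC day 3, 0.64, was 0.86 with at least 3 ATF3 UMIs, with 1 member lower in place of 0, 0.55 without mitochondrial and ribosomal protein genes and 0.83 with 100 CPM. With cells thinned to 2000 UMIs it was 0.29, with 3 members higher in place of 5 and 2 lower in place of 0. Only 23 of the 673 thinned cells then had an ATF3 UMI, with 46000 UMIs in all and 30 UMIs of SNHG12 between them. The share of all genes past the limit was not computed for the alternatives of this contrast. Their counts are therefore no result about the members.

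The summed log2 ratio on day 3, 0.36, was -0.0086 with TMM, 0.0050 with DESeq2, 0.25 without mitochondrial and ribosomal protein genes, 0.35 with all deposited barcodes and 0.32 without ZFAS1. On day 7, 0.60, it was 0.66 without mitochondrial and ribosomal protein genes and 0.68 without ZFAS1. For shScr day 7 over day 3, -0.67, it was -0.71 with TMM, -0.70 with DESeq2, -0.65 in cells of at least 2000 genes, -0.63 with all barcodes and -0.99 without ZFAS1. For shAPC day 7 over day 3, -0.44, it was -0.11 with TMM, -0.12 with DESeq2, -0.26 without mitochondrial and ribosomal protein genes, -0.38 with all barcodes and -0.63 without ZFAS1. The ratios were not computed without SNHG25 alone, the member that fell most in CPM between the days.

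In percentage points, shAPC minus shScr, the thinned share of SNHG12 on day 3, 8.51, was 20.3 unthinned. That of SNHG15 on day 3, 4.10, was 19.3 unthinned and 10.5 thinned to 5000 UMIs. On day 7, SNHG19, at 15.2, had 34.7 and 24.8, and SNHG25, at 16.4, had 33.1 and 25.6.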
